A study of Mus musculus with 14 samples.

Results

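The genes described here are 10 of the mammalian zinc handling genes. They were chosen by name with earlier results of these data known, and all are listed in both mice. The ZnT transporter genes are *Slc30a1*, *Slc30a2*, *Slc30a4*, *Slc30a5* and *Slc30a7*. The ZIP transporter genes are *Slc39a7*, *Slc39a8* and *Slc39a10*, and the metallothionein genes are *Mt1* and *Mt2*. Together they are 10 of the 20515 genes with a usable symbol. Total RNA was sequenced from L10 mammary glands, that is, from day 10 of lactation, of 2 wt/Wap-Tbrg4 mice, labelled WT_wTbrg4 and called replicate 1 and replicate 2 below. These mice carry one unmodified chromosome and one on which a CRISPR-Cas9 deletion, made in C57BL/6 zygotes, joins the *Wap* enhancers, promoter and transcription start to the body of *Tbrg4*, so that the fusion gene is transcribed in mammary tissue only. Both mice carry the fusion allele, no other genotype has RNA values among the data used here, and the age of the mice and the number of founders are not given in the sources used here. The 12 ChIP-seq samples of the series, among its 14 samples, were not analysed here. Each value is an FPKM, fragments per kilobase of exon or intron scaled to sequencing depth, and is therefore a level per length. With 2 mice of a single genotype no test between groups exists, so levels are given for each mouse, with the mean ± SD (n = 2) as the error.

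Cells keep free zinc low by moving it across membranes in both directions. ZnT proteins, encoded by the Slc30a genes, carry zinc out of the cytosol, across the plasma membrane or into vesicles, the Golgi and other organelles, while ZIP proteins, encoded by the Slc39a genes, carry it into the cytosol from outside the cell or from organelles. Metallothioneins are short cysteine-rich proteins that bind zinc in the cytosol, and MTF-1 is the transcription factor that senses zinc and binds metal response elements in the promoters of metallothionein genes and of *Slc30a1*. The lactating gland takes zinc from the blood and secretes it with milk. Loss of ZnT4 in the lethal milk mouse, and mutations of ZnT2 in nursing women, leave the milk poor in zinc.

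The metallothionein pair shows how alike members of this group can be in sequence while differing in level. RefSeq places *Mt1* at chr8:94179089-94180327 and *Mt2* at chr8:94172618-94173567, both on the plus strand of GRCm38, each with 3 coding exons that together hold 186 bases and 62 codons including the stop. The coding sequences follow 5′ to 3′, with capitals at the 38 positions where the bases differ.
Mt1: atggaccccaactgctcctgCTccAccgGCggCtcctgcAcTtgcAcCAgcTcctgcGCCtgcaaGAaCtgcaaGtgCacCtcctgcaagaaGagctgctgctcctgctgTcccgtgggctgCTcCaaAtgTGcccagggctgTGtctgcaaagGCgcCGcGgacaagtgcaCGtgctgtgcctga
Mt2: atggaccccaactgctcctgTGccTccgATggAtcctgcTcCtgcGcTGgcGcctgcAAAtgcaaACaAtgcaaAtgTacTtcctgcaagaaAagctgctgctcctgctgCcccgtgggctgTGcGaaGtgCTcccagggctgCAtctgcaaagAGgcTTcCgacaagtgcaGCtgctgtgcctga
These sequences were 79.6% identical without a gap, and their longest identical run was 20 bases. Both hold 20 cysteine codons (TGC or TGT), the residues that bind metal. No stretch of at least 100 bp elsewhere in the genome reached 95% identity with either coding sequence. The search used the joined coding exons, so untranslated exon bases were not searched. A copy split by introns into shorter stretches would be missed.

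The start regions of the 10 genes were searched for the core of the metal response element, TGCACNC or TGCGCNC, on both strands, from 250 bases before to 250 bases after each start in the RefSeq promoter table (GRCm38.p6), which for *Slc30a2* is the base 134343466, inside the outermost transcript. *Mt2* held 7 matches and *Mt1* held 5. Of 32851 RefSeq promoters of this length, 37.9% held at least 1 match, 0.490% at least 5 and 0.0487% at least 7. *Slc30a4* held 3 matches, a number reached by 4.86% of promoters, and *Slc30a1*, *Slc30a2* and *Slc30a5* held 2 each, reached by 13.7%. *Slc39a7* held 1 match and *Slc30a7* held 0. *Slc39a8* held 0 at its first and 1 at its second listed start, and *Slc39a10* held 1 and 2. The matches of the metallothionein genes, of *Slc30a1* and *Slc39a10* as the transporter genes on the list of MTF-1 targets, and of *Slc30a4* as the transporter gene with the most matches at a single start are shown with 8 flanking bases on each side, 5′ to 3′ on the strand of the gene. Capitals mark the match, positions count from the RefSeq start at 1 (for *Slc39a10*, 145 from its first start and 89 and 126 from its second), and the genome interval is that of the match.
*Mt1* -23 to -17, chr8:94179066-94179072: tcccgctgTGCACACtggcgctc
*Mt1* 3 to 9, chr8:94179091-94179097: gggagctcTGCACTCcgcccgaa
*Mt1* 21 to 27, chr8:94179109-94179115: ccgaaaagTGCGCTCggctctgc
*Mt1* 85 to 91, chr8:94179173-94179179: cgcctgctGGGTGCAaacccttt
*Mt1* 99 to 105, chr8:94179187-94179193: aaacccttTGCGCCCggactcgt
*Mt2* -223 to -217, chr8:94172395-94172401: atcgcctcTGCACCCggcccctc
*Mt2* -128 to -122, chr8:94172490-94172496: agacccttTGCGCTCagctcctt
*Mt2* -50 to -44, chr8:94172568-94172574: gggagggcGTGTGCAggctctgt
*Mt2* 5 to 11, chr8:94172622-94172628: ttcgggtcGTGCGCAggcccagg
*Mt2* 59 to 65, chr8:94172676-94172682: aaaagggcGTGTGCAggcggcgg
*Mt2* 78 to 84, chr8:94172695-94172701: gcgggggcGCGTGCAtggtgcct
*Mt2* 112 to 118, chr8:94172729-94172735: ggagctttTGCGCTCgacccaat
*Slc30a1* -43 to -37, chr1:191906738-191906744: ggggttccGAGTGCAaagcaaag
*Slc30a1* 31 to 37, chr1:191906811-191906817: tccgggccGAGCGCAgtcgccgc
*Slc39a10* 145 to 151, chr1:46925626-46925632: cgtatgctGGGCGCAcacagctc
*Slc39a10* 89 to 95, chr1:46853524-46853530: acacgactGGGTGCAgccggggt
*Slc39a10* 126 to 132, chr1:46853487-46853493: agaggagaTGCACACggcactcg
*Slc30a4* -228 to -222, chr2:122702885-122702891: ggggctcaGAGCGCAcaagacct
*Slc30a4* -92 to -86, chr2:122702749-122702755: cgcctcgcGGGCGCAcgcgccgc
*Slc30a4* -6 to 1, chr2:122702663-122702669: gggcgggcGGGTGCAgtggctgg
A match is a string of letters and not a measured binding site. The RefSeq starts were not checked against measured starts, so a position after 1 is not shown to lie within the transcript. The windows were also searched for the STAT5 motif TTCNNNGAA, since STAT5 is the prolactin-activated factor of the lactating gland, and for the CRE motif TGACGTCA. The STAT5 motif was present in 12.8% of all promoters and, among the members, at the first start of *Slc39a10* on chromosome 1, 82 to 74 bases before it: aagtctttTTCTTAGAAaaaaaaaa. The CRE motif was present in 2.08% of all promoters and in no member window. No pair of matches in a member overlapped.

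**Figure D1:**
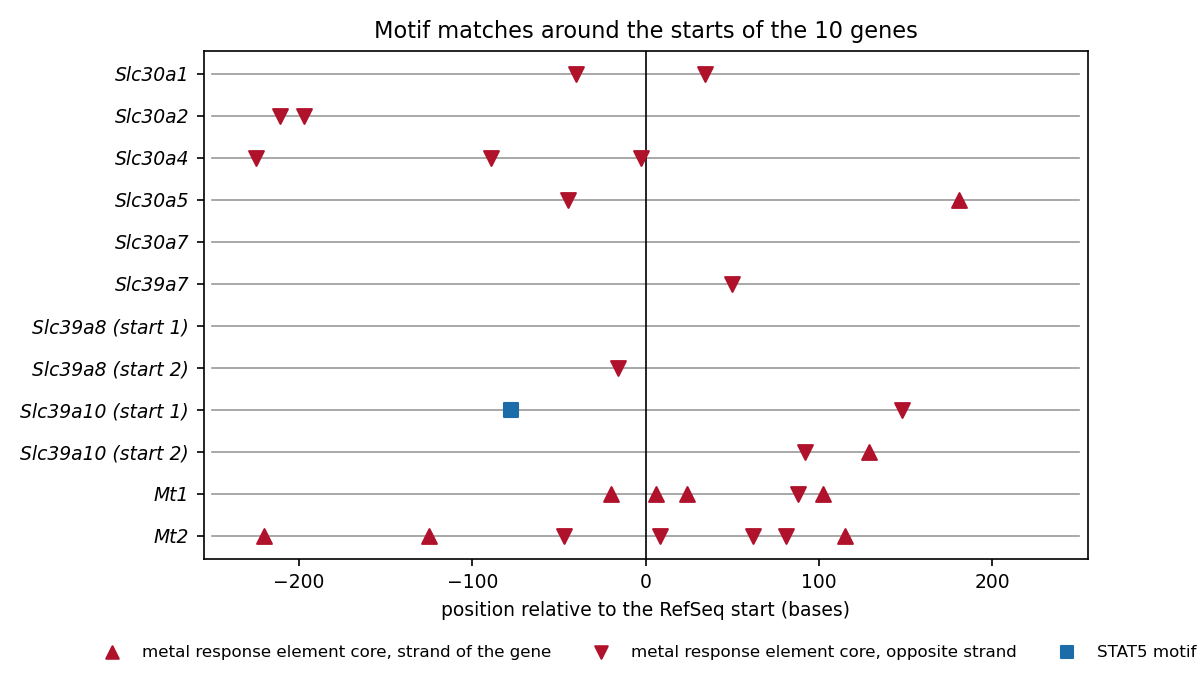
Each line is the window of 250 bases before and after a RefSeq start of a member, with the position from the start in bases on the horizontal axis. Triangles are metal response element cores on the strand of the gene or on the opposite strand, and the square is the STAT5 motif; *Mt2* holds 7 cores and *Mt1* holds 5, and no other window holds more than 3.

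All 10 genes reached a mean exon FPKM of 1, and 8 reached 10. Of all 20515 genes, 9845 reached 1 and 3112 reached 10. In each mouse *Slc39a8* was highest and *Mt1* held place 3 among them. The summed exon FPKM of the 10 genes was 451 in replicate 1 and 505.2 in replicate 2, of which *Slc39a8* alone gave 223.8 and 289.1. The tissue holds several cell types, and in such bulk samples fewer cells of a type and less RNA per cell cannot be told apart.

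Among the ZnT genes, *Slc30a4* was highest. It encodes ZnT4, which loads zinc into vesicles of the secretory pathway, and lies at chr2:122681233-122702663 on the minus strand. Replicate 1 gave 44.1 and replicate 2 gave 69.0 exon FPKM (56.55 ± 17.6, SD, n = 2), and by this mean the gene ranked 413th of 20515. *Slc30a2*, at chr4:134343046-134354484 on the plus strand, encodes ZnT2, a vesicle transporter of secretory cells. Here replicate 1 was the higher, with 18.8 against 14.5 FPKM (16.65 ± 3.04, SD, n = 2), rank 1830. *Slc30a4* was higher than *Slc30a2* in both mice, by 2.35-fold in replicate 1 and 4.76-fold in replicate 2. The size of this ratio thus differed between the mice, while its direction did not. Exon GC content was 41.3% for *Slc30a4* and 54.4% for *Slc30a2*, and the ratio was not corrected for it. Their coding sequences were 50.4% identical over the aligned length.

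*Slc30a5* and *Slc30a7* encode ZnT5 and ZnT7, which supply zinc to enzymes in the early secretory pathway. *Slc30a5*, at chr13:100802648-100833427 on the minus strand, had exon FPKM of 17.4 and 19.6 (18.5 ± 1.56, SD, n = 2). *Slc30a7*, at chr3:115938973-116007406 on the minus strand, had 13.5 and 19.4 (16.45 ± 4.17, SD, n = 2). The ranges of the 2 genes overlapped, and their ratio within a mouse was 1.29 in replicate 1 and 1.01 in replicate 2. ZnT5 works as a heterodimer with ZnT6, whose gene *Slc30a6* had exon FPKM of 4.0 and 4.1. *Slc30a5* thus exceeded its partner 4.35-fold and 4.78-fold per length.

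*Slc30a1* had the lowest mean of the 10. It encodes ZnT1, the zinc exporter of the plasma membrane, and lies at chr1:191906781-191913247 on the plus strand. The mice gave 5.2 and 5.0 FPKM over its exons (5.1 ± 0.141, SD, n = 2), rank 5303, and *Slc30a4* exceeded it 8.48-fold in replicate 1 and 13.8-fold in replicate 2. Of its exon bases, 468 (8.95%) are also exon bases of 1700034H15Rik on the opposite strand. The strand setting of the counting is not given in the sources used here, so reads of the 2 genes there cannot be told apart.

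Among the ZIP genes, *Slc39a8* stood far above the others. It encodes ZIP8, a plasma membrane carrier that imports zinc and also manganese, and lies at chr3:135825279-135888572 on the plus strand. Exon levels reached 223.8 FPKM in replicate 1 and 289.1 FPKM in replicate 2 (256 ± 46.2, SD, n = 2). The gene ranked 97th of all genes in replicate 1 and 74th in replicate 2. The level was 5.07-fold and 4.19-fold that of *Slc30a4*, the next gene by mean. The lowest value of *Slc39a8* was above the highest of *Slc30a4*. *Slc39a8* exceeded *Slc39a7*, the next gene in replicate 1, 3.45-fold in that mouse and 9.87-fold in replicate 2. Compared with *Slc39a14*, the gene of ZIP14 and the closest relative of ZIP8 in the family, it was higher by 6.52-fold and 6.63-fold.

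*Slc39a7*, at chr17:34028266-34031690 on the minus strand, encodes ZIP7, which releases zinc from the endoplasmic reticulum and Golgi into the cytosol. Replicate 1 gave 64.9 FPKM and replicate 2 only 29.3 (47.1 ± 25.2, SD, n = 2). Among the 10 genes it held place 2 in replicate 1 and place 4 in replicate 2, and its exon values had the largest fold difference between the mice of any of them. *Slc39a10*, at chr1:46807544-46925776 on the minus strand, encodes ZIP10, a plasma membrane importer. It was at 11.6 and 13.3 FPKM (12.45 ± 1.2, SD, n = 2), and *Slc39a8* exceeded it 19.3-fold and 21.7-fold. Near-identical sequence elsewhere in the genome, in 2 stretches, matches 14% of the coding bases of *Slc39a10*, and how the authors treated reads with several places is not given in the sources used here. No such stretch was found for the coding sequences of the other 9 genes, and untranslated exon bases were not searched.

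*Mt1* was the main metallothionein transcript. Exons were at 46.7 FPKM in replicate 1 and 40.0 FPKM in replicate 2 (43.35 ± 4.74, SD, n = 2), rank 582. *Mt2* had 5.0 and 6.0 (5.5 ± 0.707, SD, n = 2), rank 5054. The ranges were far apart, and *Mt1* exceeded *Mt2* 9.34-fold and 6.67-fold within the mice. The collapsed exons are short and of similar length, 542 bp for *Mt1* and 556 bp for *Mt2*.

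From high to low, the order by mean exon FPKM was *Slc39a8*, *Slc30a4*, *Slc39a7*, *Mt1*, *Slc30a5*, *Slc30a2*, *Slc30a7*, *Slc39a10*, *Mt2* and *Slc30a1*. Of the 9 pairs of neighbours in it, 4 had ranges that did not overlap: *Slc39a8* above *Slc30a4*, *Mt1* above *Slc30a5*, *Slc30a7* above *Slc39a10*, and *Slc39a10* above *Mt2*. The separation of *Slc30a7* from *Slc39a10* was small, 13.5 for the lower value of the first against 13.3 for the higher value of the second. The other 5 pairs did not differ beyond the spread between the mice. The order of *Slc30a4*, *Slc39a7* and *Mt1* differed from mouse to mouse between 29.3 and 69.0 FPKM, and that of *Slc30a5*, *Slc30a2* and *Slc30a7* between 13.5 and 19.6 FPKM.

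**Figure D2:**
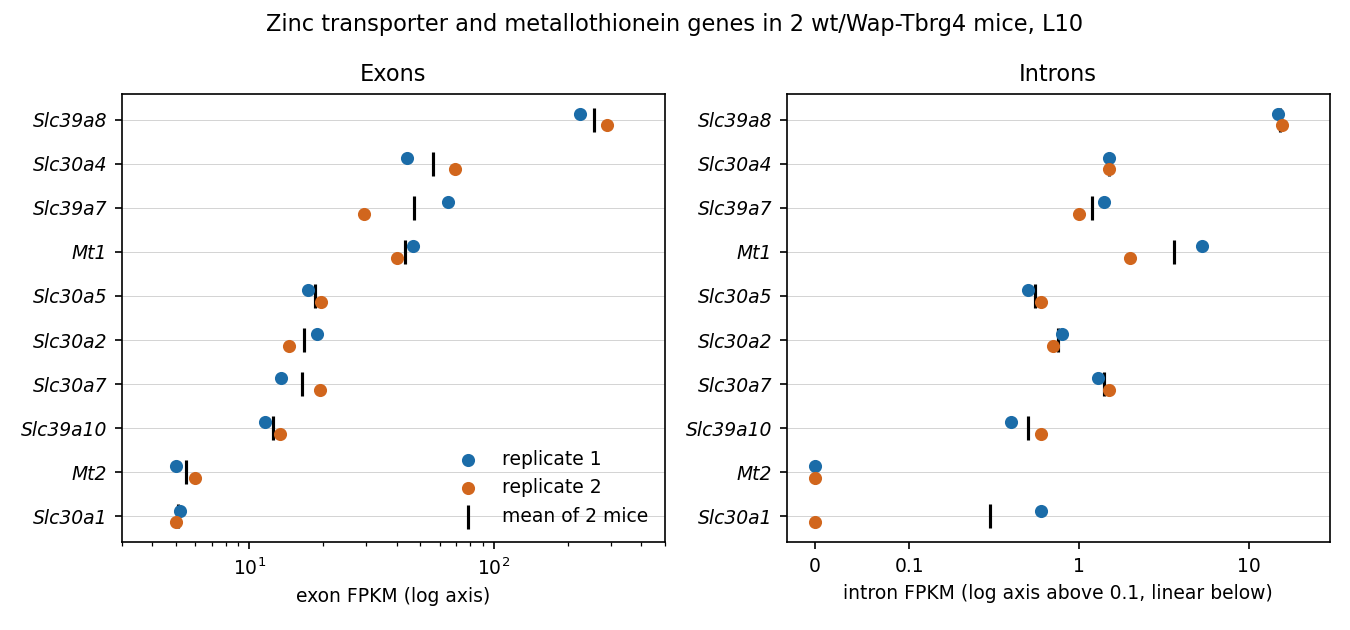
Exon FPKM (left, log axis) and intron FPKM (right, log axis above 0.1 and linear below) of the 10 genes, sorted by mean exon FPKM. Points are the 2 mice and bars their mean; *Slc39a8* lies at 223.8 and 289.1 in exons, above both mice of every other member, and is also highest in introns.

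Set among their whole families, the members held most of the signal. They were chosen with earlier results of these data known, so these shares are a description only. Of the ZnT genes, 10 are listed, 7 reached a mean exon FPKM of 1, and the 5 members held 86.0% of the summed exon FPKM of the family in replicate 1 and 89.3% in replicate 2. *Slc30a4* alone held 38.3% and 48.4%. *Slc30a9*, whose protein is mitochondrial, was the highest ZnT gene outside the group, at 12.1 and 11.1. *Slc30a3*, *Slc30a8* and *Slc30a10*, which act in neurons, pancreatic islets and, for manganese, liver and brain, were listed at 0 in both mice.

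Of the 14 ZIP genes, 10 reached a mean exon FPKM of 1, and the 3 members held 70.2% and 71.3% of the family's summed exon FPKM. *Slc39a8* held 52.3% in replicate 1 and 62.2% in replicate 2, *Slc39a7* held 15.2% and 6.30%, and *Slc39a10* held 2.71% and 2.86%. The next ZIP genes outside the group were *Slc39a14* at 34.3 and 43.6, *Slc39a6* at 24.7 and 36.1, *Slc39a11* at 30.2 and 18.7, and *Slc39a1* at 26.4 and 21.1. Each of these stood above the member *Slc39a10* in both mice, among them *Slc39a6*, which encodes ZIP6, the partner of ZIP10. *Slc39a4*, the importer of the gut, was at 0.6 and 0.4, and *Slc39a5* and *Slc39a12* were listed at 0. The summed exon FPKM of the ZIP family was 3.72-fold that of the ZnT family in replicate 1 and 3.26-fold in replicate 2. Without *Slc39a8* it was 1.77-fold and 1.23-fold, with the ZIP sum still the higher in both mice.

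Of the 4 metallothionein genes, *Mt1* held 89.6% and 87.0% of the summed exon FPKM. *Mt3*, a brain metallothionein, was at 0.4 and 0.0, and *Mt4*, a gene of stratified epithelia, was listed at 0 in both mice. *Mtf1*, the gene of the zinc sensor, was at 2.4 and 2.7. Besides *Mt1*, *Mt2*, *Slc30a1* and *Slc39a10*, the list of MTF-1 targets held *Ndrg1*, a stress-response gene, at 128.8 and 115.1, *Csrp1*, a LIM-domain protein gene, at 87.5 and 79.8, and *Selenow*, a selenoprotein gene, at 25.6 and 12.2. All 7 targets reached a mean exon FPKM of 1. Over the whole zinc homeostasis list, 29 of 41 genes did so, beside 9845 of all 20515 genes. On that list, 8 genes were at 0 in both mice. A 0 here is not taken as absence, because *Gapdh* and *Ppia*, which all cells use, are listed at 0.1 and 0.3 and at 0.4 and 0.0 in the same tables.

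**Figure D3:**
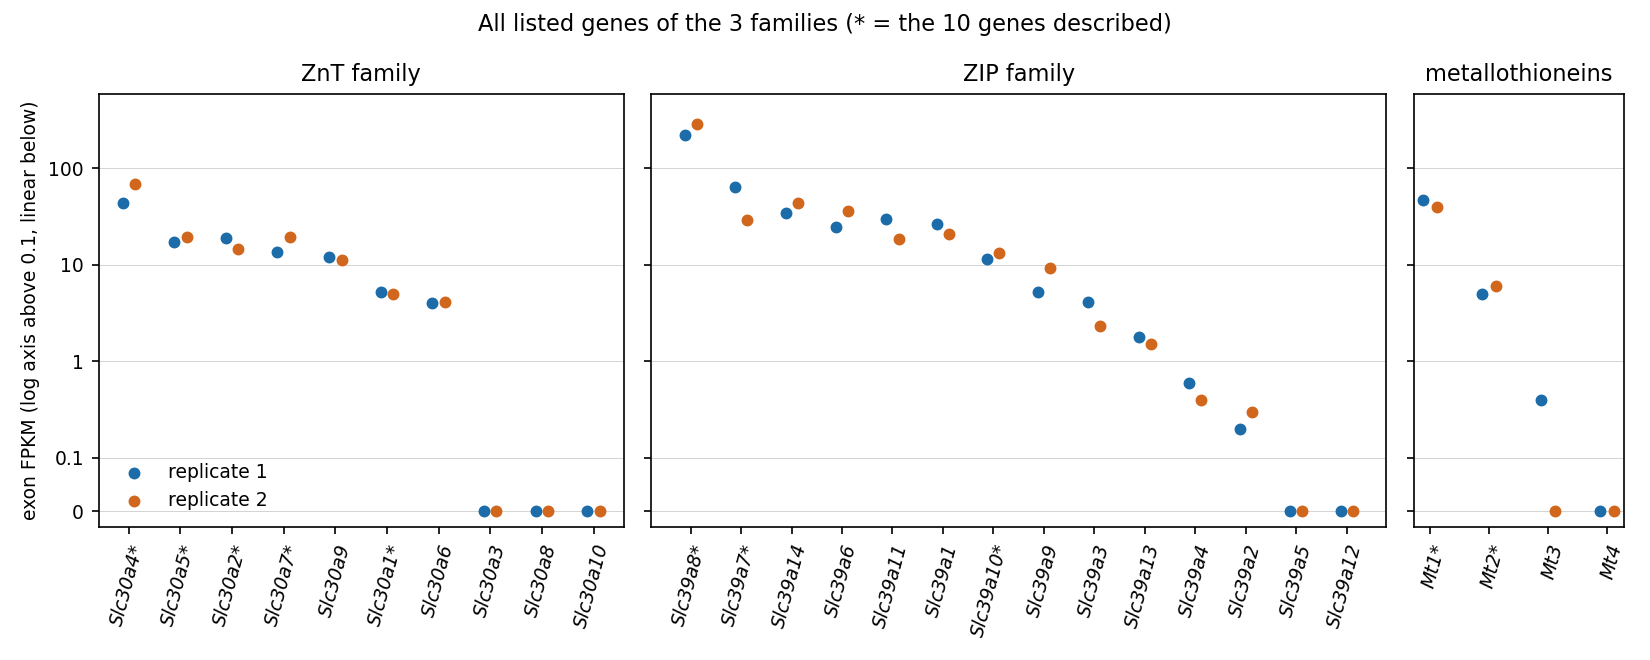
Exon FPKM (log axis above 0.1, linear below) of every listed ZnT, ZIP and metallothionein gene in the 2 mice, with the 10 genes described here marked by an asterisk. In each family the highest gene in both mice is a member: *Slc30a4* at 44.1 and 69.0, *Slc39a8* at 223.8 and 289.1, and *Mt1* at 46.7 and 40.0. The members were chosen with earlier results of these data known.

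Intron reads of total RNA come largely from unspliced transcripts. In introns, *Slc39a8* was again first, at 14.8 and 15.8 FPKM (15.3 ± 0.707, SD, n = 2), which ranked 35th of 20515 genes. *Mt1* followed, at 5.3 in replicate 1 and 2.0 in replicate 2, over only 697 bp of intron. The first was nearly equal in the mice, and the second differed between them. *Slc30a4* had 1.5 in both mice, *Slc30a7* had 1.3 and 1.5, and *Slc39a7* had 1.4 and 1.0. *Slc30a2* was at 0.8 and 0.7, *Slc30a5* at 0.5 and 0.6, and *Slc39a10* at 0.4 and 0.6. *Slc30a1* was at 0.6 in replicate 1 and 0.0 in replicate 2, and *Mt2*, with 394 bp of intron, was listed at 0 in both. The order thus differed from that in exons, with *Slc30a7* and *Mt1* higher and *Mt2* lower in place. With a single deposited decimal, values near 0.5 are resolved in steps of 0.1 only. The curated gene 4933401H06Rik lies within *Slc39a8* on the opposite strand and shares 0 exon bases with it, and Mir669n lies likewise within *Slc30a7*. As the strand setting of the counting is not given, reads of these genes cannot be told apart from intron reads of *Slc39a8* and *Slc30a7*.

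Intron FPKM as a share of exon FPKM described the same point within each gene. By the means of the mice, the share was largest for *Slc30a7*, at 9.63% in replicate 1 and 7.73% in replicate 2, and for *Mt1*, at 11.3% and 5%. *Slc39a8* was at 6.61% and 5.47%, *Slc30a2* at 4.26% and 4.83%, and *Slc39a10* at 3.45% and 4.51%. *Slc30a4* and *Slc39a7*, next below *Slc39a8* in exon level, were among the lowest at 3.40% and 2.17% and at 2.16% and 3.41%, as was *Slc30a5* at 2.87% and 3.06%. *Slc30a1* and *Mt2* had too little intron signal for a share to be read. On the log2 scale with 0.1 added to both means, the intron to exon ratio had a median of -4.34 over the 10 genes and was highest for *Slc30a7*, at -3.46. Among the 8 members with intron signal in both mice it was lowest for *Slc39a7*, at -5.18, while the -5.81 of *Mt2*, with introns listed at 0, is set by the 0.1 added. Over all 9845 genes whose exons averaged 1 FPKM or more, the median was -3.55 and the quartiles were -4.39 and -2.84. On this scale the middle of the group lay near the lower quartile of all genes, and *Slc30a7* and *Mt1* lay at the middle of all genes. The 0.1 added keeps genes with low exon FPKM from reaching low ratios, even with introns at 0. Of the 9845 genes, 3112 averaged 10 exon FPKM or more, against 8 of the 10 members. The place of the members among all genes thus also depends on exon level, and genes of like level were not compared.

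**Figure D4:**
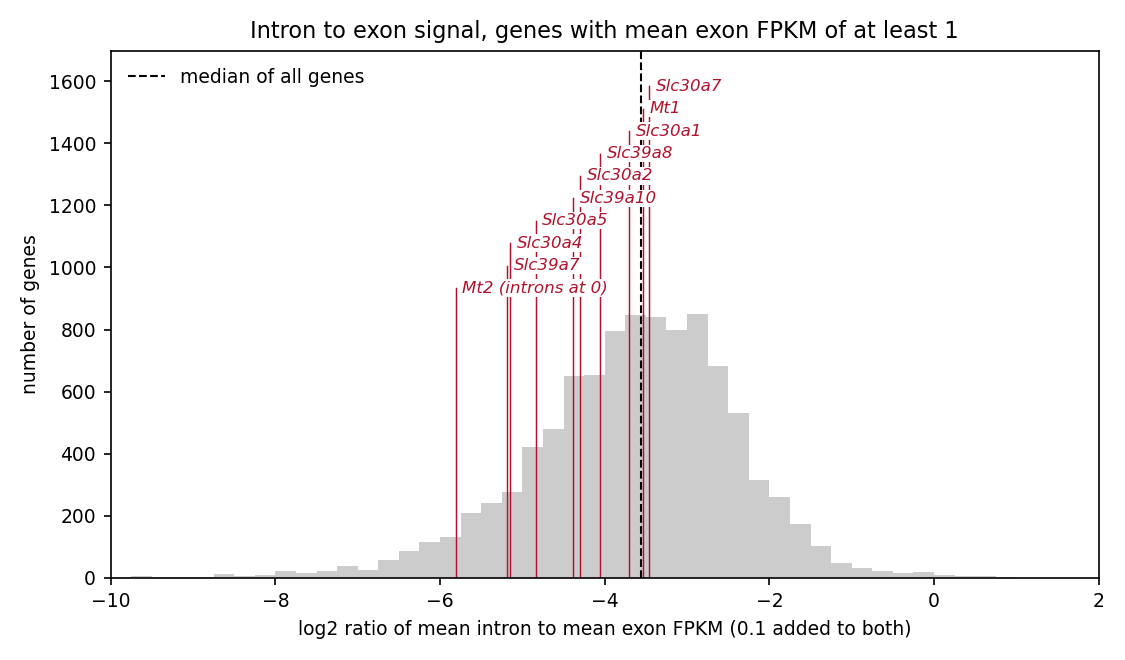
Histogram of the log2 ratio of mean intron to mean exon FPKM, 0.1 added to both, over genes averaging 1 exon FPKM or more, with the number of genes on the vertical axis. Lines mark the 10 members, whose heights are staggered for reading only; those with intron signal in both mice run from -5.18 (*Slc39a7*) to -3.46 (*Slc30a7*), the line of *Mt2* at -5.81 is set by the 0.1 added to introns listed at 0, and the dashed line is the median of all genes at -3.55.

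To set the mice side by side, the log2 ratio of replicate 2 over replicate 1 was taken for each gene, with 1 added to its exon FPKM. On the deposited scale 6 of the 10 genes were higher in replicate 2 and 4 lower, whereas 0 were higher once each mouse was rescaled to the same summed exon FPKM. That step takes the median of all genes from -0.08 to -0.90. On the deposited scale the quartiles of all 9845 genes were -0.43 and 0.23. The share of all genes higher in replicate 2 was not counted. The deposited sums differed, 852961 in replicate 1 and 1788120 in replicate 2, and 10 genes held 79.5% and 90.6% of them. The following ratios are on the deposited scale. *Slc30a4* had the highest ratio, 0.63, followed by *Slc30a7* at 0.49 and *Slc39a8* at 0.37. *Mt2* (0.22), *Slc39a10* (0.18), *Slc30a5* (0.16), *Slc30a1* (-0.05), *Mt1* (-0.22) and *Slc30a2* (-0.35) lay closer to 0. *Slc39a7* was lowest at -1.12, or 2.22-fold in FPKM.

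*Slc39a7* was thus the single member more than 2-fold apart between the mice, lower in replicate 2. Of all 9845 such genes, those averaging 1 exon FPKM or more, 5.9% were more than 2-fold apart, 1.08% higher and 4.82% lower in replicate 2. The count of 1 in 10 therefore stood near the background. The median ratio was 0.17 over the members and -0.08 over all genes. In introns, with 0.1 added and a mean intron FPKM of at least 0.5 required, 8 members could be compared, all but *Slc30a1* and *Mt2*. Of these, *Mt1* was more than 2-fold apart, with a log2 ratio of -1.36, while over all 4220 such genes 6.52% were, 2.65% higher and 3.86% lower in replicate 2. Its exon ratio was -0.22, so on the deposited scale the 2 mice differed more in *Mt1* introns than in its exons. That exon ratio was -1.25 after rescaling and 0.39 after the GC correction described below. Neither step was applied to introns. The median intron ratio was 0.05 over the 8 members and 0 over all genes.

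GC content moved with these ratios. Over 9839 genes, the Spearman correlation between exon GC content and the log2 exon ratio was -0.66, and over the 10 members it was -0.68. These are correlations across genes of the same 2 libraries, given as a description. *Slc30a4*, with 41.3% GC, and *Slc30a7*, with 43.3%, were among the members highest in replicate 2, and *Slc39a7*, with 57.8%, was the lowest. *Mt1* and *Mt2*, with 57.9% and 56.8% GC, lay above the trend. After a lowess fit of the ratio on GC content was subtracted, *Slc39a7* moved to -0.52, *Slc30a4* to 0.31, *Slc39a8* to 0.27 and *Slc30a2* to -0.02. With this fit 0 members remained more than 2-fold apart. *Mt1* turned from -0.22 to 0.39 and *Slc39a10* from 0.18 to -0.08, while *Mt2* became the highest at 0.74. Among the MTF-1 targets outside the group, *Selenow* was also more than 2-fold lower in replicate 2, with a ratio of -1.01, which became -0.45. The part of GC content in these differences was not tested beyond this fit.

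**Figure D5:**
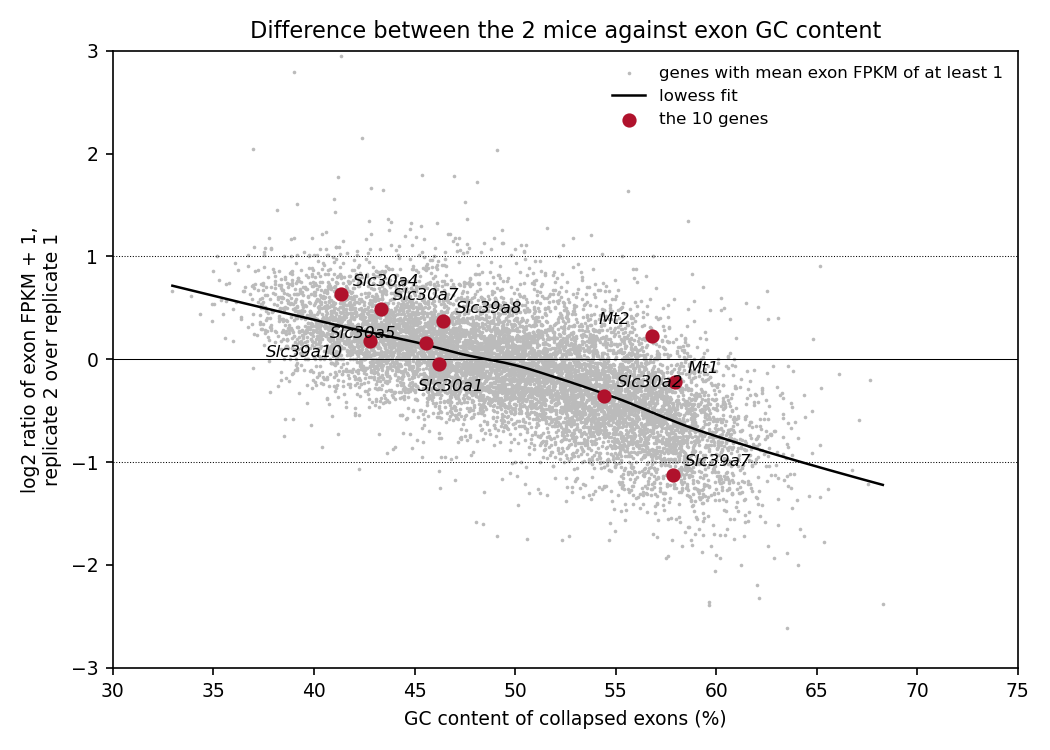
Log2 ratio of exon FPKM + 1 of replicate 2 over replicate 1 against the GC content of the collapsed exons (%), for 9838 genes (grey, 1 gene beyond ±3 not drawn) and the 10 members (red), with a lowess fit and dotted lines at 2-fold. On the deposited scale *Slc39a7* lies below the lower dotted line, at -1.12 and 57.8% GC; after rescaling to equal sums all 10 members would lie below 0.

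The labelled tissue was checked against markers. Genes of secretory alveolar cells were very high, with *Wap* at 172935 and 234774 and the casein gene *Csn2* at 108555 and 481937 exon FPKM, *Lalba*, the alpha-lactalbumin gene, at 8453.5 and 8265.4, and *Elf5*, a factor of alveolar cells, at 185.8 and 204.8. *Krt18*, a keratin of luminal cells, was at 145.0 and 57.6, so these 5 markers did not move together between the mice. Markers of other cells were present in both mice: the summed exon FPKM was 43.4 and 32.5 for 4 myoepithelial markers, of which *Acta2* is listed at 0, 132.4 and 155.5 for 4 adipocyte markers, 46.1 and 40.1 for 3 endothelial, 70.0 and 93.4 for 3 fibroblast, 11.7 and 7.6 for 3 macrophage, 3.2 and 3.5 for 3 lymphocyte and 271.2 and 294.8 for 2 erythroid markers. Their part in the levels of the zinc genes was not tested.

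For the highest gene of each family, the genes nearest in level were found by the Euclidean distance over 4 values, log2(FPKM + 1) of exons and introns in each mouse. For *Slc30a4* these were *Ier3ip1*, at a distance of 0.253, with exon FPKM of 48.5 and 63.9, and *Cltc*, the clathrin heavy chain gene, at 0.260, with 52.6 and 71.3. For *Mt1* they were *Ucp2*, a mitochondrial carrier gene, at 0.324, and *Ext1*, a heparan sulfate synthesis gene, at 0.410. *Slc39a8* had more distant neighbours, *Rab18*, a small GTPase gene, at 0.514 and *Ccl28*, a chemokine gene of mucosal and mammary epithelium, at 0.769. *Ccl28* was at 150.5 and 278.1 in exons and at 11.8 and 11.6 in introns, beside 14.8 and 15.8 for *Slc39a8* introns. Likeness in 4 values of 2 libraries describes level only.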

How the data were processed

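Total RNA of L10 mammary glands from the 2 WT_wTbrg4 mice was sequenced by the authors with a TruSeq Stranded Total RNA kit, aligned to mm10 with STAR, and counted with HTSeq on collapsed UCSC known gene exons and on the introns between them. The authors then generated FPKM values with DESeq2 and deposited them with 1 decimal; tool versions, the strand setting, the treatment of reads with several places and the scaling total are not given in the sources used here. FPKM of 1 decimal could not be resolved into whole reads, so the depth of each library is unknown and no counting interval is given. Precision rests on the 2 mice.

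Of 20550 rows, 35 had no usable symbol. Structures, GC content and sequences came from curated RefSeq on GRCm38, which matched 99.7% of the usable genes. Exon ratios used a pseudocount of 1 and a minimum mean FPKM of 1, and intron ratios 0.1 and 0.5. A gene was called at more than 2-fold. The lowess fit used 30% of the genes. Near-identical stretches were found with BLAST 2.17.0. The scripts ran on Python 3.11.15 with numpy 2.4.6, pandas 2.3.3, statsmodels 0.14.6, pysam 0.24.0, Biopython 1.88 and matplotlib 3.10.9, and the ratio and GC steps were tested on simulated data.

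The members and gene lists were chosen with earlier results of these data known. The text names all 10 members, the 5 highest other ZnT and ZIP genes, *Mtf1*, the MTF-1 target and zinc enzyme lists, and the 2 genes nearest to the highest member of each family. Other list genes (*Slc30a3*, *Slc30a6*, *Slc30a8*, *Slc30a10*, *Slc39a4*, *Slc39a5*, *Slc39a12*, *Mt3*, *Mt4*, *Trpm7*, *S100a8*, *S100a9*, *Tmem163*, *Gpr39*), marker genes and control genes are named beyond that rule, after their values were seen.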

Additional observations from a re-analysis of the deposited data

How the results depend on the processing

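The 2 mice are of 1 genotype, so no p-value exists, and a level with either mouse left out stays within 1 SD of the mean by construction. The same holds for the geometric mean of the mice, and a filter cannot change the log2 ratio of a single gene. The counts below include these alternatives, which could not move a value. Of 33 alternatives for summary results, 25 changed little, 7 moved the value and 1 reversed it; for single members, 24 of 98 moved the value, and 9 changed the sign of a log2 ratio: 6 after rescaling (*Slc30a4*, from 0.63 to -0.41, *Slc39a8*, from 0.37 to -0.70, *Slc30a5*, *Slc30a7*, *Slc39a10* and *Mt2*), 2 under the GC correction (*Mt1*, from -0.22 to 0.39, and *Slc39a10*) and 1 on centring (*Slc30a1*). Without replicate 1, *Slc39a7* exons fell from the mean of 47.1 to 29.3 FPKM, the single member level to move by over 1.5 times with a mouse left out. With each mouse rescaled to a summed exon FPKM of 1000000, the summed exon FPKM of the 10 genes went from 478.1 to 405.6, the members more than 2-fold apart in exons from 1 to 3 (*Slc39a7*, *Slc30a2* and *Mt1*), beside 42.6% of all genes, and their median log2 ratio from 0.17 to -0.82, beside -0.90 for all genes. Under the lowess correction for GC content that count was 0. Without a filter on introns the members more than 2-fold apart were 2, beside 3.14% of all genes; the second, *Slc30a1*, is at 0.6 and 0.0, so that the 0.1 added sets its ratio. The median log2 intron to exon ratio was -4.50 to -4.47 with either mouse left out and -3.29 with a pseudocount of 1. Over all genes, those more than 2-fold apart in exons numbered 581 of 9845 (5.9%), but 1102 of them (11.2%) with a pseudocount of 0.1, 4193 (42.6%) after rescaling, 188 of 9839 (1.91%) after the GC correction and 231 of 3112 (7.42%) with a filter at 10. Centring, which sets the median of all genes to 0, gave 7 members higher and 3 lower in replicate 2. Where no value shows a cause, the cause was not tested. No paired analysis was possible because the mice form a single group. Ratios between the mice cannot be computed with a mouse left out. Values of 1 decimal limit introns near 0.5 FPKM, and the unknown depth leaves counting error unmeasured.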

Other observations

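Leaving aside *Mtf1* and the MTF-1 targets given above, the listed zinc enzymes and other zinc handling genes had exon levels from 0 to 14.8 FPKM. The ectoenzymes that receive zinc in the secretory pathway were all above a mean of 1 FPKM: *Enpp3*, a nucleotide pyrophosphatase gene, was highest at 8.3 in replicate 1 and 9.3 in replicate 2, *Alpl*, the tissue-nonspecific alkaline phosphatase gene, was at 3.9 and 3.6, *Enpp2*, the autotaxin gene, at 1.8 and 2.8, and *Enpp1* at 1.4 and 1.7. The summed exon FPKM of these 4 genes was 15.4 and 17.4, below that of *Slc30a5* alone, at 17.4 and 19.6, in each mouse. *Trpm7*, a channel that conducts zinc and magnesium, was at 11.8 and 14.8. *S100a8* and *S100a9*, whose proteins form the zinc-binding calprotectin of neutrophils, were at 0.5 and 2.5 and at 0.9 and 0.7, while the summed macrophage markers were at 11.7 and 7.6. *Tmem163* and *Gpr39*, a vesicle zinc transporter gene and a zinc receptor gene, were listed at 0 in both mice.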
